A study of Mus musculus with 32 samples.

Results

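Histone H3 trimethylated at lysine 27 (H3K27me3) was compared between mouse progenitors carrying both a CRISPR guide against Asxl1 and the activated receptor CSF3R T618I (double cells, 2 libraries) and progenitors carrying CSF3R T618I with a non-targeting guide (CSF3R cells, 3 libraries). These 5 libraries were chosen by their titles alone, out of 10 H3K27me3 libraries and 32 samples in the series. The cells are HoxB8 cells, bone-marrow progenitors immortalised with an estrogen-dependent HoxB8. All carried a guide and the vector pMICH, and all were collected 48 h after estrogen was removed. CSF3R cells carried a non-targeting guide and pMICH with CSF3R T618I. Double cells carried the Asxl1 guide named B2 and the same receptor vector, so both groups express the mutant receptor and differ by the guide. The control cells used to place domains carried the non-targeting guide and the empty vector, and a further group of 3 libraries carried the Asxl1 guide and the empty vector. The labels do not say whether replicates are separate cultures, clones or pools, so p-values measure only the spread between these libraries, which may be technical. The rest of the series profiled H2AK119ub and H3K4me1 in the same 4 genotypes, plus 2 IgG libraries merged into 1 list of background peaks.

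H3K27me3 is laid down by Polycomb repressive complex 2 on genes that are kept silent, typically at CpG-rich promoters, from which it spreads over neighbouring nucleosomes into broad domains. Polycomb repressive complex 1 ubiquitinates histone H2A, which gives the mark H2AK119ub, and Asxl1 is the partner of Bap1, the enzyme that removes this ubiquitin. In blood progenitors the mark covers genes of other lineages, and the Hox genes and other developmental regulators lie in its longest domains. CSF3R is the receptor for G-CSF, the cytokine that drives neutrophil production, and the T618I form signals without ligand.

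The mark was measured by CUT&Tag, in which an antibody-tethered transposase cuts beside the modified nucleosome, and each library was deposited as a list of peak positions in mm10. No file holds read counts, peak heights or scores, so sequencing depth is unknown and no counting interval can be given. Asxl1 and Csf3r themselves held no H3K27me3 in any of the 5 libraries, so the guide cannot be checked with this mark. The labelled cell type was checked against its defining genes. Of 10 myeloid genes, 8 had no H3K27me3 in the 10 kb around their start in any of the 5 libraries and 8 had H3K4me1 in all 5. Of 16 genes of other lineages, 9 had H3K27me3 in all 5 libraries and 0 had H3K4me1 in all 5. Chromosome 1 held 13.9% and 10.8% of the peaks in double cells against 5.84% ± 0.07 (SD, n = 3) in CSF3R cells. The counts below include it unless stated otherwise, and its own values are also given separately.

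Promoters of 3 genes show the outcomes described here: a start that left the peaks, a start that stayed in a peak while the flanks left, and a start that a peak came to cover. Each is the 250 bases before the transcription start, from RefSeq in the GRCm38.p6 build, the coordinates behind mm10, written along the gene's strand with CpG dinucleotides in capitals.
Foxd3, chr4:99656049-99656298, plus strand: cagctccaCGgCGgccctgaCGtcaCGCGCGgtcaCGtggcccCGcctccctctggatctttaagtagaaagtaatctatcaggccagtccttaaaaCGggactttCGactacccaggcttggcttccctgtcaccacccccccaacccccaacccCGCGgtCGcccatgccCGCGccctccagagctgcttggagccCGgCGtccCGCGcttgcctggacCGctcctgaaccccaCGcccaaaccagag
Id3, chr4:136143572-136143821, plus strand: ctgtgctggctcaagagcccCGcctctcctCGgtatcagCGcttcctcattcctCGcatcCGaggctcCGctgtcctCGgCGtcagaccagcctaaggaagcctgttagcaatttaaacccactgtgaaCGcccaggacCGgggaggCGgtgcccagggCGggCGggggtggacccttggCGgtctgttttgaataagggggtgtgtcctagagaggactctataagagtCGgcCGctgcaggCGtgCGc
Plxnc1, chr10:94944846-94945095, minus strand: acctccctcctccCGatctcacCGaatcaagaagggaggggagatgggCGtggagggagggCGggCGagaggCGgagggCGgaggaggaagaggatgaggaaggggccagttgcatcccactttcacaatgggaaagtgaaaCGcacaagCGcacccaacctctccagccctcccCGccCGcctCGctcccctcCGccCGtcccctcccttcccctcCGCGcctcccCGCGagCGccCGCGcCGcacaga
The Foxd3, Id3 and Plxnc1 stretches hold 21, 18 and 22 CpG (the letters CG, which read the same on both strands), against a median of 10 over all 17492 promoters of this length in the table, 92.6% of which hold at least 1.

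Double cells had about as many H3K27me3 peaks as CSF3R cells, but the peaks were narrower and the long ones were fewer. CSF3R libraries held 15279, 18980 and 22610 peaks, and double libraries 16948 and 18520. The numbers overlap, and the exact permutation test gave p = 0.8. Peaks covered 31.3, 34.1 and 42.2 Mb in CSF3R cells against 19.2 and 14.2 Mb in double cells. Both double libraries lay below every CSF3R library, by a ratio of 2.15. The 2 control libraries covered 15.9 and 22.7 Mb, which overlaps the double libraries and lies below the CSF3R libraries. The median peak was 900, 750 and 750 bp wide in CSF3R cells and 450 and 250 bp in double cells, and peaks under 500 bp rose from 37.0%, 41.0% and 40.4% of all peaks to 50.4% and 65.1%.

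The shortfall grew with peak length. Peaks over 5 kb numbered 1669, 1678 and 2118 in CSF3R cells and 517 and 229 in double cells. Peaks over 10 kb numbered 377, 354 and 509 against 65 and 20. In share of covered length, those over 5 kb held 46.3%, 41.5% and 44.3% against 20.4% and 11.8%, and those over 10 kb 18.4%, 15.1% and 18.2% against 4.84% and 2.35%. Groups did not overlap in any of these measures. With 3 against 2 libraries the exact 2-sided permutation test has 10 arrangements and cannot go below p = 0.2, which is what covered length, mean width and the share over 5 kb each gave. The share of peaks touching the IgG list was 11.2% to 11.8% in CSF3R cells and 8.39% to 9.26% in double cells.

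**Figure D1:**
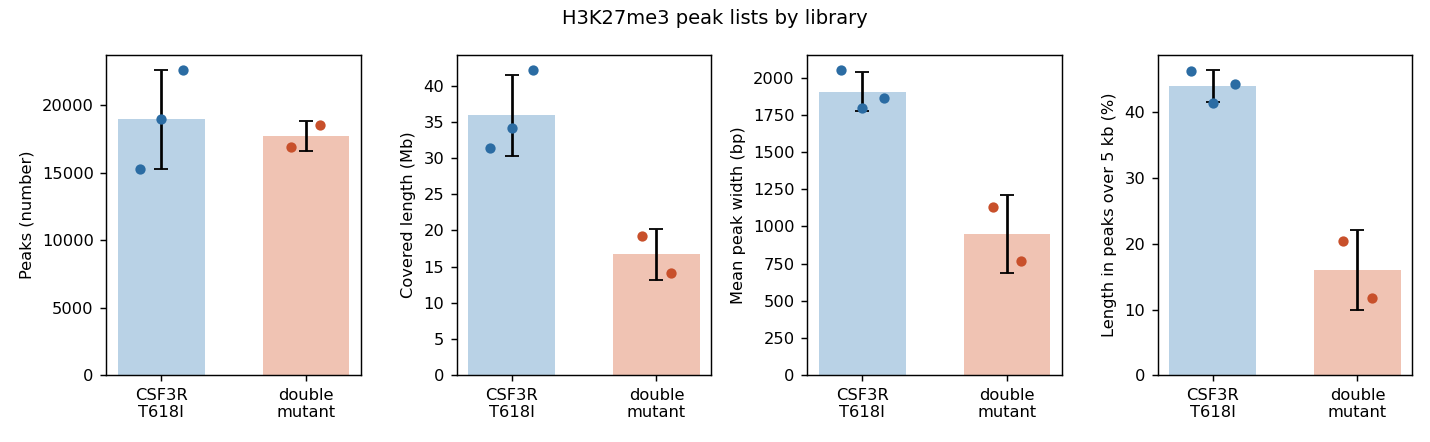
H3K27me3 peak number, covered length (Mb), mean peak width (bp) and percent of length in peaks over 5 kb, with bars for group means, error bars for the SD (n = 3 and 2) and 1 point per library. The peak numbers overlap between groups, while covered length (31.3 to 42.2 Mb against 14.2 to 19.2 Mb) and the share of length in peaks over 5 kb (41.5% to 46.3% against 11.8% to 20.4%) do not.

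What remained in double cells lay mostly inside what CSF3R cells had. Of the covered length of the double libraries, 86.2% and 81.2% lay within peaks of at least 1 CSF3R library, while 52.5%, 50.7% and 43.9% of the length of the CSF3R libraries lay within peaks of at least 1 double library. The double peaks that touched no CSF3R peak, 24.1% and 37.4% of the lists, were short, with median widths of 300 and 200 bp. A CSF3R peak over 5 kb was covered over 83.6% to 96.1% of its length by another CSF3R library, in 1.1 to 1.41 pieces on average. In a double library the same peaks were covered over 36.5% to 56.1% of their length, in 1.77 to 2.00 pieces, and 53.0% to 57.7% of them were met by 2 or more pieces. Only 1.74% to 4.91% met no double peak at all. The control libraries also met these peaks in several pieces, with 53.9% to 74.6% of the length covered in 1.53 to 1.74 pieces and 42.1% to 52.4% of the peaks met by 2 or more. In the other direction, the double libraries' own peaks over 5 kb were covered over 95.1% to 98.2% of their length in CSF3R libraries. These shares depend on which library supplied the peaks and are given as a description.

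Domains were therefore taken from the control libraries, which belong to neither group. Peaks of the 2 control libraries were merged, and the 1154 merged stretches of 5 to 86.7 kb (median 6.93 kb) were kept, of which 819 (71.0%) contain the start of a protein-coding gene. CSF3R libraries covered 94.8%, 93.8% and 96.8% of this length, and double libraries 64.3% and 48.2%. Groups did not overlap, at 95.1% ± 1.52 (SD, n = 3) and 56.2% ± 11.4 (n = 2). Of the 1154 domains, 821 (71.1%) were covered less in double cells and 0 more (limma on the covered fraction, adjusted p under 0.05 by Benjamini-Hochberg, fitted on the 5 libraries).

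The uncovered length lay both within domains and at their edges. Gaps between peaks inside a domain took 2.01%, 3.23% and 1.58% of the length in CSF3R cells and 16.3% and 22% in double cells. With the guide alone they took 22.9%, 6.64% and 22.8%, and in the control libraries 10.8% and 3.77%. Uncovered edges took 3.17%, 2.95% and 1.61% against 18.0% and 28.6%, and domains without any peak took 1.40% and 1.28% in double cells and none in CSF3R cells. So almost every domain kept some of the mark, and the missing length was split between inner gaps and edges in similar parts. H2AK119ub covered 44.5%, 54.3% and 49.5% of the same domains in CSF3R cells and 58.9% and 42.5% in double cells, values that overlap (exact permutation p = 1.0).

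Break-up was seen in the number of peaks per domain. Exactly 1 peak touched 1031, 967 and 1051 of the 1154 domains in CSF3R cells, and 527 and 455 in double cells. Such a domain need not be covered over its whole length: 583, 571 and 758 domains were fully covered in CSF3R cells, and 62 and 9 in double cells. Domains with 3 or more peaks numbered 13, 28 and 9 against 206 and 276, so both double libraries had several times as many as any CSF3R library. Libraries with the guide alone had 207, 72 and 280, and the control libraries, which supplied the domains, had 123 and 22. Break-up was therefore not particular to double cells. The mean number of peaks per domain was 1.12, 1.19 and 1.1 against 1.78 and 1.96. By limma, 194 domains (16.8%) held more peaks in double cells and 9 (0.780%) fewer, and the longest single piece was shorter in 740 (64.1%) and longer in 0. Peak counts are small whole numbers, so their calls depend strongly on equal counts within a group. The Hoxb6 domain, at 1, 1 and 1 against 3 and 3, passed. The Hoxc11 domain, at 1, 1 and 1 against 4 and 7, did not (limma adjusted p = 0.078). Without a test, every double library held more peaks than every CSF3R library in 327 domains and fewer in 15. Both less coverage and more peaks were called in 183. Of 882 domains that were 1 peak in every CSF3R library, 274 held 2 or more peaks in both double libraries and 241 still held 1 in both. The median difference in peaks per domain was 0.5. It was 1 without double replicate 1 and 0.333 without double replicate 2, fits that leave 1 double library with no spread of its own. Without CSF3R replicate 3 the domains covered less numbered 529.

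More peaks were called most often in long domains, which have more room for separate peaks. More peaks were called in 11.8% of domains of 5 to 7 kb and in 35.5% of the 76 domains of 15 kb or more. In these 76 the mean number of peaks was 1.18, 1.54 and 1.21 in CSF3R cells and 3.62 and 4.38 in double cells. In domains of 5 to 7 kb it was 1.09, 1.11 and 1.06 against 1.42 and 1.48. Counts were not scaled to domain length, so a rise with length is in part built in. Peaks in any 1 library lay at least 1050 bp apart, so a gap shorter than that would not have been seen.

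**Figure D2:**
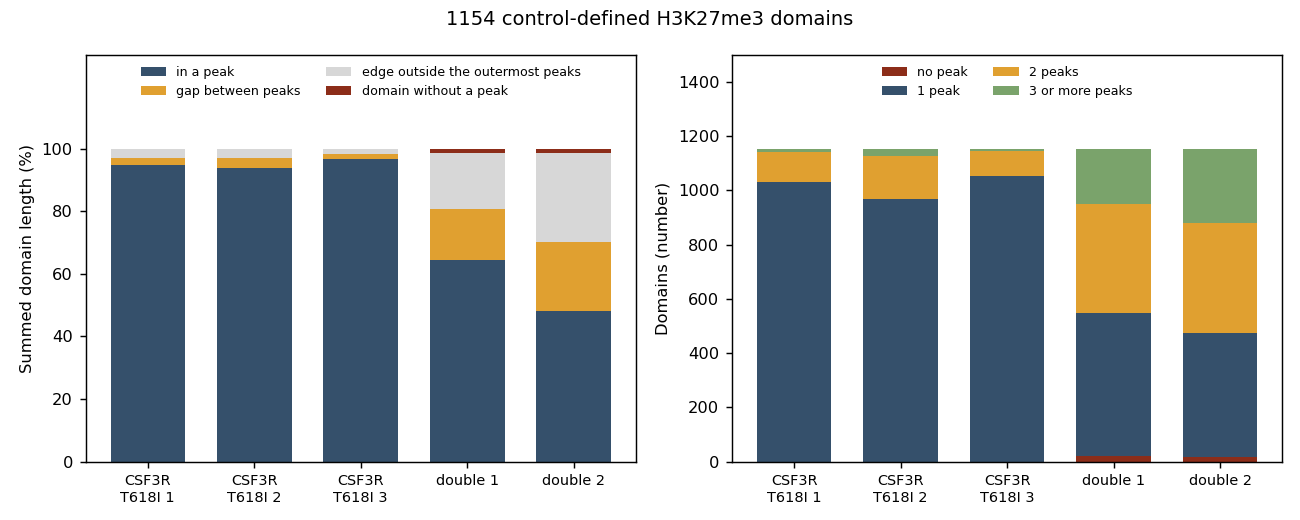
Domains taken from the control libraries, in each CSF3R and double library: the share of domain length in peaks, in gaps between peaks, at uncovered edges and in domains with no peak, and the number of domains by their peak count. Double libraries covered 64.3% and 48.2% of the length against 93.8% to 96.8% in CSF3R libraries, and held 206 and 276 domains in 3 or more peaks against 9 to 28.

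Among the listed developmental genes, the longest domain was the Hoxa cluster, chr6:52209551-52255650, which spans Hoxa3, Hoxa7, Hoxa9, Hoxa10 and Hoxa11, homeobox factors that set position along the body axis and, for Hoxa9, sustain blood progenitors. Its 46.1 kb were covered over fractions of 1, 0.87 and 0.95 in CSF3R cells and 0.44 and 0.39 in double cells, which was called (limma adjusted p = 0.0022). The domain was 1, 6 and 2 peaks in CSF3R cells and 10 and 11 in double cells. Every double library had more peaks, but the increase missed the threshold (limma adjusted p = 0.0899). The Vax2 domain, of a homeobox factor of the eye (chr6:83691201-83719250), was 1 peak in every CSF3R library and 5 and 9 peaks in the double libraries (limma adjusted p = 0.078). The Lhx6 domain, of a LIM homeobox factor of interneurons (chr2:36085451-36110100), was 1, 2 and 1 peaks against 6 and 6 and was called for peaks (limma adjusted p = 0.0055).

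The domains with the strongest calls for more peaks were those around Nrn1, encoding neuritin (chr13:36721951-36732500), Sp7, the osteoblast factor osterix (chr15:102355001-102368800), and Foxa2, a forkhead factor of endoderm (chr2:148036651-148049300). Each was 1 peak in all 3 CSF3R libraries and 4 peaks in both double libraries. The adjusted p of 2.31e-08 that limma gave for each reflects peak counts that were identical within groups, and such counts carry no estimate of spread. In the Hoxb cluster the domain around Hoxb9 (chr11:96267151-96281650) went from 1 peak in every CSF3R library to 5 and 4, with covered fractions of 1 in all 3 against 0.25 and 0.30 (limma adjusted p = 0.00059). Fewer peaks were rare and came from smaller domains. A domain with no protein-coding start at chr11:98959501-98965450 had 1 peak in each CSF3R library and none in either double library, and the domains at Creb3l1, a membrane-bound transcription factor, and Abtb2 each went from 2 peaks to 1.

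Not every long domain was broken. The longest of all, 86.7 kb at chr8:123538051-123624750, holds 48 ribosomal RNA genes in the annotation and was named after its values were seen. It was covered over 1 in all 3 CSF3R libraries and over 0.98 and 1 in double cells (limma adjusted p = 0.79 for coverage). It was 1 peak in each CSF3R library and 2 and 1 in the double libraries. In control it was 13 and 2 peaks, and with the guide alone 46, 1 and 8. H2AK119ub covered 0.995 to 1 of it in all 5 libraries. Whether peaks over these ribosomal RNA genes reflect the mark was not tested. The En1 domain, of a homeobox factor of the midbrain, lies on chromosome 1 (chr1:120590851-120614750). Its covered fractions were 0.85, 0.86 and 0.95 against 0.91 and 0.64, in 2, 2 and 2 peaks against 2 and 4. These overlap, neither measure passed (limma adjusted p = 0.31 and 0.35), and without double replicate 2 the differences in coverage and in longest piece turned positive, to 0.0216 and 0.0384.

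Gene by gene, H3K27me3 was measured as the fraction of a 10 kb window, 5 kb to each side of the transcription start, that lay in peaks. For 4395 of 21887 protein-coding genes the start was not given in the reference table, and the window was placed on a gene end. A window was tested if the fraction reached 0.2 in at least 2 of the 10 H3K27me3 libraries, which left 3513. Double cells had less of the mark at 826 of them (23.5%) and more at 5 (0.142%) by limma at an adjusted p under 0.05, and 1685 had an unadjusted p under 0.05. The mean fraction over the 3513 windows was 0.46, 0.47 and 0.52 in CSF3R cells and 0.26 and 0.20 in double cells, and the median difference was -0.24. With the log2 covered length of each library as a covariate, 1119 windows were lower and 52 higher, and the median difference was -0.13. Every double library was below every CSF3R library at 2916 windows (83.0%) and above at 26 (0.740%). The shift was general, and the called windows are those where it was large against the pooled spread of all 10 libraries. A lower window is lower than in CSF3R cells, which need not mean lower than in control. Of the 826, 33 had none of the mark in control, 268 had a mean control fraction of up to 0.2, and 28 had 1 over 0.8.

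The filter itself favours windows that are high in one of the groups. Of the 3513 windows, 863 passed it only with the help of the CSF3R libraries (251 of them lower) and 43 only with that of the double libraries (4 of them higher), and at these a difference is in part built in. The 863 include the lower genes Nkx6-2, Six4, Lin28b, Irf8, Rxra, Epor, Il13, Phf19, Rybp and Cdh1 named below. In 2449 windows the filter was met by the control and Asxl1 libraries, which are in neither group. There 563 (23.0%) were lower and 1 was higher, with a median difference of -0.27. The number of calls rests on single libraries. When CSF3R replicate 3 was left out, 0 windows passed by limma, and 1021 had an unadjusted p under 0.05. The same held for double replicate 1 (0 passed, 1152 unadjusted) and for double replicate 2 (0 passed, 755 unadjusted). Without CSF3R replicate 2 there were 93 lower windows and without CSF3R replicate 1 there were 295. Without Asxl1 replicate 2, a library of 45373 peaks, there were 2260 among 3358 tested windows. That library is in neither group but enters both the estimate of spread and the filter. Without Asxl1 replicate 1 the count was 1533, without Asxl1 replicate 3 it was 355, and without either control library it was 379 or 378.

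A window with less coverage usually still held a peak. Of the 826 lower windows, 579 (70.1%) had a peak in both double libraries, 113 in 1 and 134 in none. Over all 3513 windows, 3457 had a peak in every CSF3R library. Of these, 244 had none in either double library and 322 had a peak in 1. A peak in both double libraries and in no CSF3R library was found at 6 windows, of which Gsta3, Nab1, Sphkap and Aqp12 are on chromosome 1 and the others are Itgb3 and Zfp516.

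The widest peak touching each window showed the same direction. Its median width was 4.35, 4.25 and 4.80 kb in CSF3R cells and 2.15 and 1.5 kb in double cells, and the groups did not overlap. Windows with a peak in all 5 libraries were fitted, without the coverage filter. They numbered 3271, of which 2891 were among the 3513 tested for coverage. The widest peak was narrower in double cells at 1473 (45.0%) and wider at 9 (0.275%) by limma on log2 width, with a median difference of -1.25 on the log2 scale. Coverage was also called lower at 532 of the 1473, some of which were not tested for coverage. Without CSF3R replicate 3 the narrower windows numbered 457, and without CSF3R replicate 1 or 2 they numbered 766 or 726.

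Coverage within the window depended on the distance from the start. Over the 510 starts with a control fraction of at least 0.5, the start itself lay in a peak at 98.0%, 98.8% and 99.4% in CSF3R cells and at 82.2% and 85.5% in double cells. At 3 kb downstream the shares were 83.3%, 81.8% and 88.8% against 51.8% and 33.3%, and at 3 kb upstream 69.8%, 68.2% and 73.7% against 41.6% and 25.9%. Double cells lay below CSF3R cells at each of these points. As a share of the CSF3R mean, they kept 84.9% at the start, 50.3% at 3 kb downstream, 47.8% at 3 kb upstream and 44.4% at 5 kb downstream. At the same starts H2AK119ub was present at 73.7% to 82.9% in CSF3R cells and at 83.3% and 73.5% in double cells, which overlap.

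**Figure D3:**
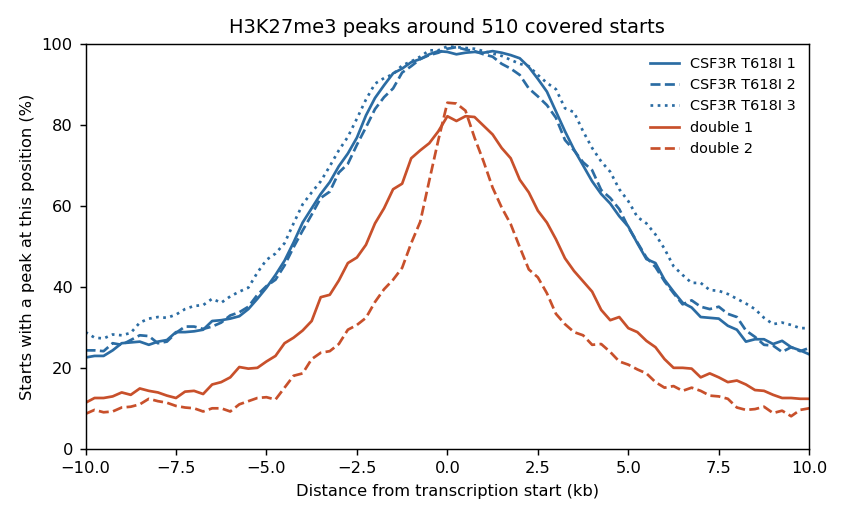
Share of 510 gene starts at which each position from 10 kb upstream to 10 kb downstream lay in an H3K27me3 peak, 1 line per library. All lines peak near the start (98.0% to 99.4% against 82.2% and 85.5%) and are farther apart at 3 kb downstream (81.8% to 88.8% against 51.8% and 33.3%).

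Among tested windows with a known start, 1987 starts lay in a peak in all 3 CSF3R libraries. Of these, 1241 (62.5%) lay in a peak in both double libraries, 417 in 1 and 329 (16.6%) in neither. The median number of CpG in the 250 bases before the start was 17 for the starts that stayed in both, 15 for those that stayed in 1 and 12 for those that stayed in none, with a range from the lower to the upper quartile of 11 to 24, 8 to 24 and 6 to 22. These ranges overlap widely and the values are given without a test. For the promoters printed above, Foxd3 left the peaks with 21 CpG and Id3 stayed with 18, so the count alone does not separate the outcomes.

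Hox genes were called lower in each of the 4 clusters. Of 39 Hox genes 35 could be tested, 17 were lower (23.5% over all windows) and 0 higher, with a median difference of -0.44 against -0.24 over all windows. All 35 had every double library below every CSF3R library (83.0% over all windows), and 34 still had a peak in both double libraries. Their mean fraction was 0.81, 0.73 and 0.81 in CSF3R cells against 0.34 and 0.30. Lower genes numbered 2 of 8 in the Hoxa, 5 of 9 in the Hoxb, 4 of 9 in the Hoxc and 6 of 9 in the Hoxd cluster. The widest peak was narrower for 30 of 34 (45.0% over all windows), with a median over genes of 13.8, 13.3 and 13.6 kb against 2.75 and 2.25 kb. Neighbouring Hox windows overlap and can share a peak, so these genes are not separate observations and their shares count some peaks repeatedly. Hoxb8 and Hoxb9, for example, had the same widest peaks of 21.25, 15.6 and 21.15 kb in CSF3R cells.

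Hoxa9, whose product drives progenitor self-renewal, was covered over 1, 0.74 and 0.89 in CSF3R cells and 0.37 and 0.33 in double cells. The groups did not overlap, and the difference was -0.53 ± 0.14 (SE; limma adjusted p = 0.034). It turned to 0.112 when every peak touching an IgG peak was removed whole, and stayed at -0.53 when only the bases in IgG peaks were left out. Hoxb8, the gene of the immortalising factor at its native locus, had fractions of 0.86, 0.86 and 0.87 against 0.27 and 0.36, a difference of -0.55 ± 0.11 (limma adjusted p = 0.017). Hoxc8 had 0.77, 0.77 and 0.82 against 0.20 and 0.075, and its widest peak went from 41.5, 20.1 and 45.9 kb to 1.7 and 0.3 kb, a log2 difference of -5.56 (limma adjusted p = 0.0085). Meis1, the Hox cofactor, had little of the mark, 0.075, 0.065 and 0.14 against 0 and 0, and was below the filter.

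Homeobox, Pax, Sox, forkhead and T-box regulators outside the Hox clusters numbered 124 tested, with 36 lower (29.0%, against 23.5% over all windows), 0 higher and a median difference of -0.33. Their mean fraction was high in CSF3R cells, at 0.83, 0.81 and 0.84. Over all windows with a control fraction of 0.6 to 0.8, where the CSF3R mean was 0.82, the median difference was -0.36 and 24.4% were lower. Their widest peak was narrower at 82 of 121 (67.8%, against 45.0% over all windows), and 121 of the 124 kept a peak in both double libraries. Foxd3, a forkhead factor of the neural crest, had fractions of 0.89, 0.87 and 0.89 in CSF3R cells and 0.020 and 0.060 in double cells, a difference of -0.84 ± 0.14 (SE; limma adjusted p = 0.011). Sox1, a factor of neural progenitors, was covered fully in all 3 CSF3R libraries and over 0.33 and 0.13 in double cells. Its difference of -0.77 ± 0.19 (limma adjusted p = 0.027) became 0.131 with whole peaks touching an IgG peak removed, though IgG peaks cover a fraction of only 0.013 of the window, and it was -0.78 with only those bases left out. Its widest peak went from 23.4, 25.9 and 23.6 kb to 7.8 and 1.5 kb. Nkx6-2 and Six4, homeobox factors of oligodendrocytes and muscle, held none of the mark in either double library. CSF3R cells had 0.50, 0.41 and 0.55 and 0.46, 0.57 and 0.47 (limma adjusted p = 0.011 for each). Both genes passed the filter only with the help of the CSF3R libraries, so the difference is in part built in. Control libraries had little there too, 0.075 and 0.040 at Nkx6-2 and 0 and 0.070 at Six4, but 0.43 and 0.46 at Foxd3 and 0.72 and 1 at Sox1.

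Among all tested windows with a named gene, the largest decreases against CSF3R cells were at Foxd3, Parp12, Sox1, Id3, Cdkn1c and Unc5a. Parp12, an interferon-induced ADP-ribosyltransferase, went from 0.84, 0.65 and 0.92 to 0 in both double libraries, a difference of -0.80 ± 0.10 (SE; limma adjusted p = 0.0094). Id3, an inhibitor of helix-loop-helix factors, went from 1, 0.99 and 1 to 0.23 and 0.21 (limma adjusted p = 0.018), and its widest peak from 16.5, 16.7 and 16.7 kb to 1.75 and 1.80 kb. Its start stayed in a peak. Unc5a, a netrin receptor, had 0.90, 1 and 1 against 0.20 and 0.20 (limma adjusted p = 0.023), and turned to 0.2 with whole IgG-touching peaks removed although no IgG peak lies in its window. For all of these, every double library lay below every CSF3R library.

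**Figure D4:**
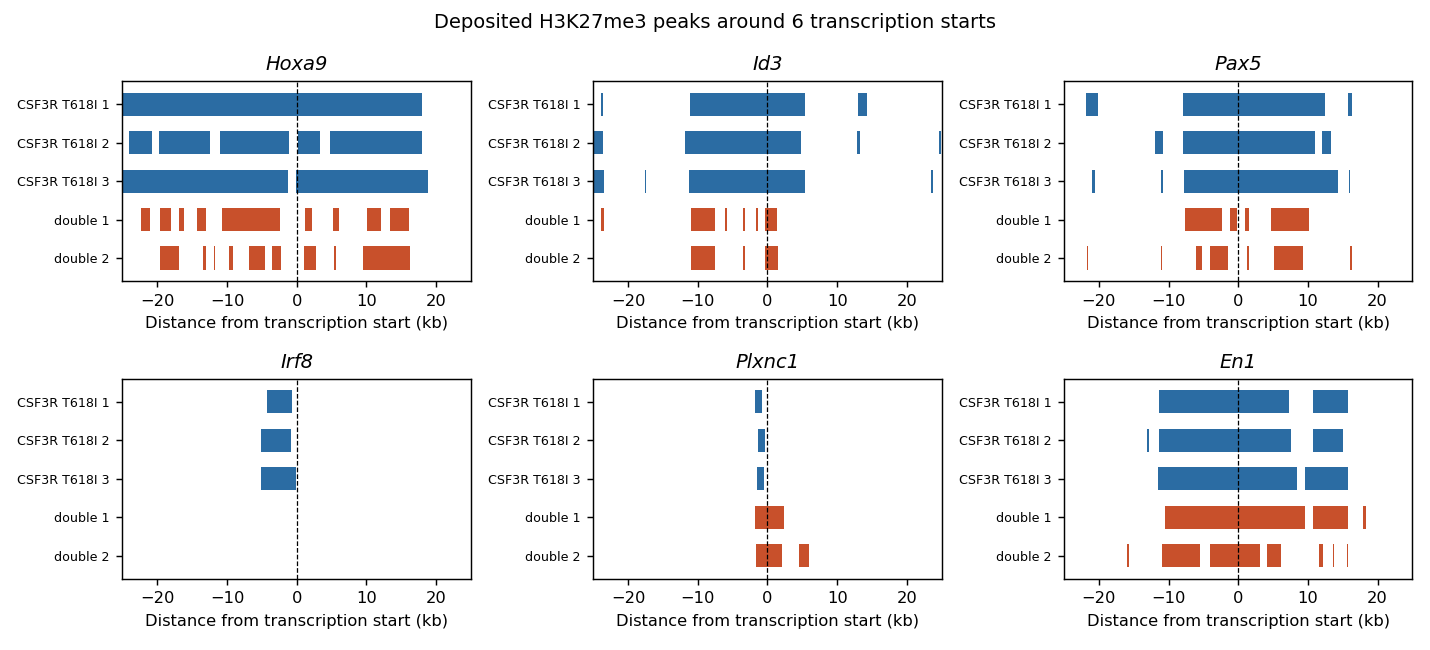
H3K27me3 peaks of the 5 libraries within 25 kb of the starts of Hoxa9, Id3, Pax5, Irf8, Plxnc1 and En1, drawn to scale as bars by distance from the start. Around Hoxa9 CSF3R libraries had 1, 5 and 2 peaks and double libraries 9 and 9. Irf8 had a peak in each CSF3R library and none in either double library, and Plxnc1 had a wider one in double cells. The En1 locus of double replicate 1 resembles the CSF3R libraries.

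Few blood genes carried the mark, and the shares of them called lower were read against 23.5% over all windows. Of 10 tested stem and progenitor genes 2 (20%) were lower, a share near that background. Gata2, a factor of stem and mast cells, had 0.62, 0.71 and 0.75 in CSF3R cells against 0 and 0.12 (difference -0.63 ± 0.08, SE; limma adjusted p = 0.0094), while H2AK119ub covered 1 ± 0 (SD, n = 3) and 0.94 ± 0.08 (n = 2) of the same window. Lin28b, the fetal RNA-binding protein, had 0.33, 0.38 and 0.15 against 0.030 and 0 (limma adjusted p = 0.047). Of 10 tested myeloid transcription factors 2 (20%, again near the background of 23.5%) were lower, and both held no H3K27me3 in either double library. Irf8, which directs monocyte and dendritic fate, had 0.36, 0.42 and 0.49 in CSF3R cells (limma adjusted p = 0.012), and Rxra, the retinoid X receptor, had 0.52, 0.78 and 0.80 (limma adjusted p = 0.010). Control libraries had 0 and 0 at Irf8 and 0.11 and 0.205 at Rxra, so at Irf8 the mark was absent from control cells as well. At Gata2 they had 0.355 and 0.419. Lin28b, Irf8 and Rxra passed the filter only with the help of the CSF3R libraries, so their decrease is in part built in.

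Among granule genes of neutrophils 2 were tested and 1 was lower (23.5% over all windows): Mmp9, a gelatinase, with 0.53 in each CSF3R library and 0.22 and 0.15 in double cells (limma adjusted p = 0.048). Of 7 cytokine receptor and JAK-STAT genes 2 (28.6%) were lower, near the 23.5% over all windows. Il6st, the shared subunit gp130, had 0.41, 0.53 and 0.71 against 0.020 and 0.030 (limma adjusted p = 0.032), and Epor, the erythropoietin receptor, had 0.30, 0.33 and 0.43 against 0 and 0 (limma adjusted p = 0.022). Of the monocyte and dendritic genes 2 were tested and neither passed, with Zbtb46 of dendritic cells at 0.46, 0.27 and 0.45 against 0.15 and 0.055 (limma adjusted p = 0.10). The other, Batf3, lies on chromosome 1. Of 6 erythroid and megakaryocyte genes 1 was lower (23.5% over all windows), Epor again, and 1 higher (0.142%), Itgb3.

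Of 10 lymphoid genes 3 were lower (30%, against 23.5% over all windows), namely Pax5, Tcf7 and Tbx21. Pax5, which commits cells to the B lineage, was covered fully in all 3 CSF3R libraries and over 0.46 and 0.28 in double cells (limma adjusted p = 0.036), and its widest peak had a log2 difference of -2.44 (limma adjusted p = 0.0099). Tcf7, a T-cell factor, had 0.48, 0.51 and 0.80 against 0.15 and 0.085 (limma adjusted p = 0.020). Ebf1 and Gata3, factors of B and T cells that also served as markers in the check of cell type, did not pass, at 0.83, 0.74 and 0.76 against 0.55 and 0.46 and at 1, 0.93 and 1 against 0.81 and 0.39 (limma adjusted p = 0.079 and 0.084). Both mast-cell and type 2 genes tested were lower (23.5% over all windows), Gata2 and the cytokine gene Il13, with Il13 at 0.34, 0.14 and 0.44 against 0 and 0 (limma adjusted p = 0.043).

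Cell cycle and Polycomb genes carried the mark at few windows. Of 5 tested cell cycle genes 2 were lower (23.5% over all windows). Cdkn2a, which encodes p16 and p19 and is a classical Polycomb target, had 0.56, 0.36 and 0.38 in CSF3R cells against 0.035 and 0.040 (limma adjusted p = 0.024). Control libraries had 0.426 and 0.435 at Cdkn2a and 0.050 and 0.254 at Cdkn1c. Cdkn1c, the imprinted inhibitor p57, whose window is placed on a gene end, had 0.82, 1 and 1 against 0.020 and 0.32 (limma adjusted p = 0.030). It turned to 0.0646 with whole IgG-touching peaks removed. Of 6 Polycomb and Asxl complex genes 2 were lower (23.5% over all windows): Phf19, an accessory factor of Polycomb repressive complex 2, with 0.30, 0.36 and 0.36 against 0 and 0.040 (limma adjusted p = 0.020), and Rybp, a subunit of variant Polycomb repressive complex 1, with 0.41, 0.27 and 0.41 against 0.090 and 0.055 (limma adjusted p = 0.046).

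Of 42 Wnt, Bmp and Hedgehog signalling genes 5 were lower (23.5% over all windows), with a median difference of -0.22 against -0.24 over all windows. The 5 were the ligands Wnt5b and Bmp7, the antagonist Nog, the receptor Fzd2 and the effector Gli3. Wnt6, Wnt10a, Ihh and Gli2, which were not called, lie on chromosome 1. Fzd2 had 0.36, 0.62 and 0.61 in CSF3R cells against 0 and 0.12 (limma adjusted p = 0.019), and Gli3 had 0.44, 0.33 and 0.33 against 0 and 0.035 (limma adjusted p = 0.024). Of 10 genes that mark other tissues 4 were lower (23.5% over all windows), namely Cdh1, Kdr, Nefl and Tubb3. Cdh1, the epithelial cadherin, had 0.73, 0.62 and 0.76 against 0 and 0.025 (limma adjusted p = 0.0094), with 0.030 and 0.15 in the control libraries. None of 26 ribosomal protein genes was covered enough to be tested.

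The 5 windows with more H3K27me3 in double cells had little or none in CSF3R cells. All but Epha7 passed the filter only with the help of the double libraries, so their low values in CSF3R cells follow in part from the filter. Zfp516, a zinc-finger gene, and Itgb3, the integrin subunit of platelets, had 0 in all 3 CSF3R libraries and 0.91 and 0.54, and 0.46 and 0.20, in double cells (limma adjusted p = 0.010 and 0.030). Plxnc1, a semaphorin receptor, had 0.10, 0.11 and 0.095 against 0.41 and 0.43 (limma adjusted p = 0.037), and its widest peak was also called wider (log2 difference 1.97, limma adjusted p = 0.0051). Epha7, an ephrin receptor, had 0.020, 0.085 and 0.030 against 0.32 and 0.33, and Sh3rf1, a ubiquitin ligase scaffold, had 0.025, 0.030 and 0 against 0.26 and 0.25 (limma adjusted p = 0.039 and 0.047). Every double library was above every CSF3R library at all 5. Windows of Zfp516, Itgb3 and Sh3rf1 are placed on a gene end. Of the 5, 4 could be tested in H2AK119ub and all 4 were higher there too, among 106 of 2875 (3.69%).

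The widest peak touching a window can lie mostly outside it. Its largest decrease was at Pdgfb, a growth factor, with 12.3, 15.9 and 16 kb against 0.3 and 0.2 kb. The log2 difference was -5.90 (limma adjusted p = 0.0025). At Nfkbie, an inhibitor of NF-kB, the widths were 10.9, 10.9 and 20.4 kb against 0.35 and 0.25 kb (log2 difference -5.50, limma adjusted p = 0.0029). At Pdgfb the 12.3 kb peak of CSF3R replicate 1 covered a fraction of 0.0037 of the window, and the double peaks 0.03 and 0.02. At Nfkbie the 0.35 kb peak of double replicate 1 covered 0.0001. Double peaks just beyond a window edge were not counted, so these differences may compare different peaks and need not be a narrowing. Both windows were too little covered, at most 0.13 and 0.17 in CSF3R cells, to be tested for coverage. Among the 9 wider ones, Apobec4 and Nos1ap, both on chromosome 1, had log2 differences of 3.06 and 3.05.

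At most windows with less H3K27me3 no change of the other marks was called. Over all windows, H2AK119ub was lower at 158 of 2875 (5.50%) and H3K4me1, a mark of enhancers and promoter flanks, was lower at 155 of 1923 (8.06%) and higher at 45 (2.34%). Of the 826 windows with less H3K27me3, 506 were tested in H2AK119ub, where 50 (9.88%) were lower and 9 (1.78%) higher. Of the windows tested in both marks without an H3K27me3 call, 12 of 1494 (0.803%) were lower in H2AK119ub and 47 (3.15%) higher. Only 18 were tested in H3K4me1, where 1 (5.56%) was lower and 4 (22.2%) were higher, at Fndc5, Zfyve28, Cfap99 and Il13. Counts in these marks rest on single libraries too: without CSF3R replicate 3 the H2AK119ub calls were 27 lower and 25 higher, without double replicate 2 they were 22 and 113, and without double replicate 1 they were 113 and 13. For H3K4me1 they were 61 and 38, 17 and 4, and 62 and 4 in the same order. A missed threshold does not show that a mark did not change at the others. Whether the guide acted differently with the receptor than without it was tested as an interaction in H3K27me3, and 0 windows passed by limma (432 at an unadjusted p under 0.05).

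Away from genes, peaks of all 10 H3K27me3 libraries were merged and 15368 regions were tested, 9982 of which (65.0%) lay outside every gene window. With the spread pooled over 10 libraries 0 passed by limma, and 3672 had an unadjusted p under 0.05. In a fit of the 5 libraries alone 2124 were lower and 138 higher, and away from gene windows 830 and 108. The median difference in covered fraction was -0.41 near genes and -0.23 away from them. Leaving out Asxl1 replicate 2 raised the 10-library counts to 3533 lower and 172 higher, and leaving out CSF3R replicate 1 raised them to 322 and 12.

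The regions with the smallest p away from gene windows were all-or-none. Regions were drawn from the peaks themselves, so those found in 1 group alone take their place and bounds from it, and the values are given as a description. At chr10:95404851-95406100, within Socs2, a suppressor of cytokine signalling, no CSF3R library had a peak and the double libraries were covered over 0.96 and 1. Regions within Dennd5b (chr6:148993801-148994950) and Col25a1 (chr3:130400751-130401750) showed the same pattern at 0.96 and 1 and at 0.95 and 1. In the other direction, chr8:13330901-13332650, chr9:66801601-66805900 and chr12:106172951-106176100, which overlap no protein-coding gene, were covered over 0.93 to 1 in every CSF3R library and over 0 in both double libraries.

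Chromosome 1 behaved apart from the other autosomes. Of its 241 tested windows 12 (4.98%) were lower, against 16.7% to 33.0% on each other autosome, and the median difference was -0.09 against -0.28 to -0.19. Double cells had a mean fraction of 0.34 there against 0.19 to 0.25 elsewhere, while CSF3R cells had 0.43 against 0.45 to 0.53. Domains were lower at 18.2% against 65.3% to 86.4%. The medians of 10 bins of 20 Mb along the chromosome lay between -0.17 and -0.06, so the whole chromosome showed it. Of 12 listed genes on it 0 were called lower and 6 had every double library below every CSF3R library. These genes are included in the list counts above. Lhx9, a LIM homeobox factor of the gonad named here after its values were seen, was covered over 1 in all 3 CSF3R libraries and over 1 and 0.89 in double cells.

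The same chromosome took a larger share of the peaks in every library with the Asxl1 guide, and in the other marks too. It held 10.8% to 13.9% of H3K27me3 peaks in the guide libraries and 5.76% to 6.23% in the others, 10.6% to 11.8% against 5.36% to 5.78% for H2AK119ub, and 8.11% to 8.44% against 6.76% to 7.05% for H3K4me1. None of these ranges overlap (exact permutation p = 0.01 for each mark, the smallest that 100 arrangements can give; the comparison was made after the values were seen). The IgG list had 9.60%, but it merges 1 library with the guide alone and 1 library of CSF3R cells, so it cannot be placed in either set. Chromosome X went the other way, with 0.544% to 1.12% against 1.40% to 2.21% of H3K27me3 peaks (exact permutation p = 0.01). For H2AK119ub the shares were 0.580% to 0.651% against 1.15% to 1.53% (exact permutation p = 0.01). For H3K4me1 they overlapped, at 1.34% to 1.77% against 1.53% to 1.87% (exact permutation p = 0.08). Of the 60 tested H3K27me3 windows on X, 38.3% were lower. No file holds copy number or depth, and the part of these shifts in the results was not tested. Without chromosomes 1 and X, the lower windows numbered 843 and the domains covered less 815.

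**Figure D5:**
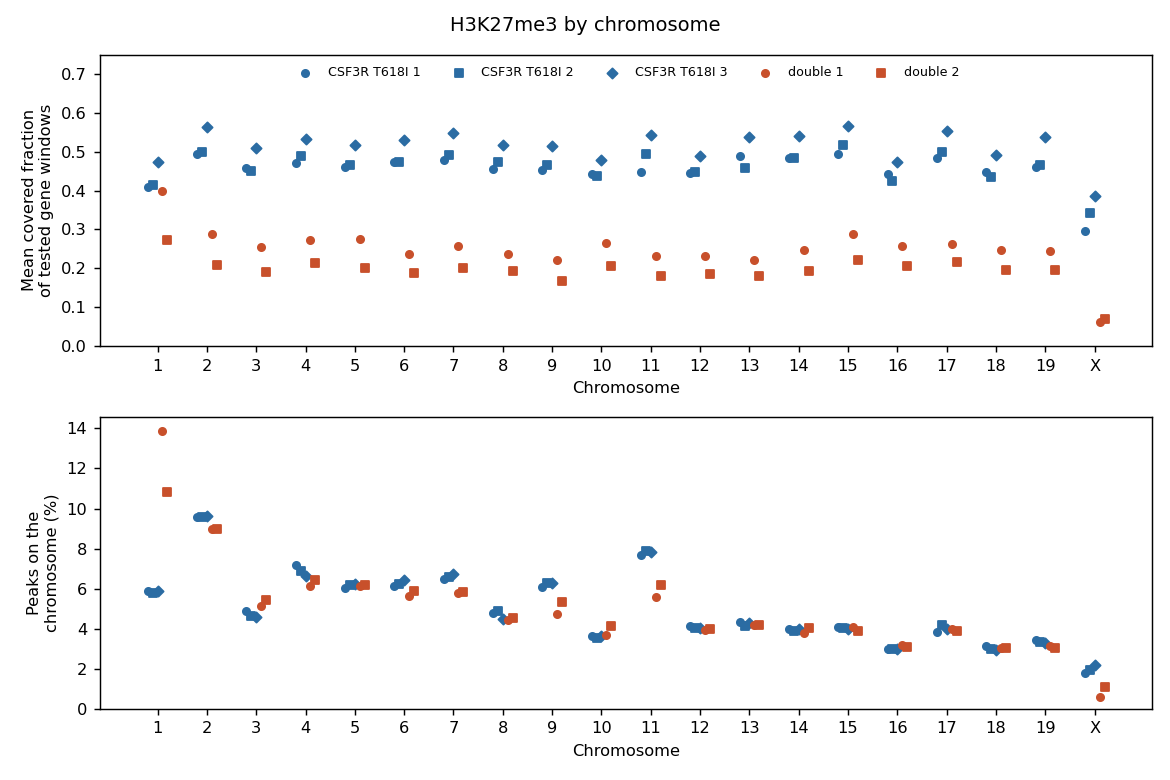
Mean fraction of the tested gene windows in H3K27me3 peaks (upper panel) and percent of all peaks (lower panel) on each chromosome, 1 point per library. Double libraries lie closest to CSF3R libraries on chromosome 1 (means of 0.34 and 0.43), where they hold 13.9% and 10.8% of their peaks against 5.84% in CSF3R cells, and lowest on chromosome X.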

How the data were processed

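Each library was deposited as peak positions (chromosome, start and end, a unit other than counts or signal), per the labels from reads aligned to mm10. Bowtie2 2.4.1 and deepTools 3.5 are named in the submitters' processing notes. Which program called peaks, and at what cutoff, is not given in the sources used here. Peaks were 200 bp or wider, in steps of 50 bp. Depth is unknown, so a shorter list can come from shallower sequencing.

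From these positions, covered fractions, peak counts and widths were computed per library over 10 kb windows at the RefSeq start of 17492 protein-coding genes, or at the more covered end of 4395 genes with no start in the table used, over domains of at least 5 kb and over merged regions of at least 1 kb seen in 2 or more libraries. Neighbouring genes can share a window. Coverage of windows and regions was fitted with limma 3.58.1 in R 4.3.3 on all 10 libraries of a mark with 1 mean per genotype. Peak width and domains were fitted on the 5 libraries compared. Tests were 2-sided and adjusted by Benjamini-Hochberg over all features. A gene was called at an adjusted p under 0.05. Library measures were compared by exact permutation with scipy 1.17.1. The scripts were tested on simulated data.

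The comparison, its gene lists and its measures were chosen with earlier results of these data known. Genes named are up to 6 with the largest decrease or increase (Gm and Rik symbols left out), up to 2 by p from each of 15 lists (1 where none passed), the 3 largest changes of the widest peak in each direction, the 5 longest domains with a listed gene (1 of them is not reported here), the 3 domains with the strongest gain or loss of peaks, 3 regions in each direction, and Hoxa9, Hoxb8, Meis1, Asxl1, Csf3r, Cebpe and Myc. Cebpe and Myc held no H3K27me3 in the 5 libraries. Other names, including members of counts of 6 or fewer, were added after their values were seen. Alternatives were another window, filter, peak set, domain definition or set of libraries, a replicate block, and leaving out each library. The fit without chromosomes 1 and X, the known-start windows and the masking of IgG bases were added after seeing the data.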

Additional observations from a re-analysis of the deposited data

Results flagged for a closer look

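The effect of the Asxl1 guide on H2AK119ub differed between cells with and without CSF3R T618I at 3 of 2875 windows, by the interaction term in limma, and 2 of these, Zfp516 and Itgb3, are among the genes named here. The other, Snai3, had an interaction of 0.623 (limma adjusted p = 0.015). In H3K4me1 17 of 1923 windows passed, none of them at a gene named by the rule. At Zfp516 the fraction of the window in H2AK119ub peaks was 0.75 and 0.64 in double cells, 0, 0 and 0.050 in CSF3R cells, 0.055, 0 and 0.035 with the guide alone and 0.020 and 0 in control. The guide's effect was larger with the receptor by 0.657 (limma adjusted p = 0.013). At Itgb3 the fraction was 0.85 and 0.74 in double cells, 0.080, 0.21 and 0.20 in CSF3R cells and 0 in all 5 others, an interaction of 0.634 (limma adjusted p = 0.015). The H3K27me3 interaction at the same genes had adjusted p = 0.39 for each by limma.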

How the results depend on the processing

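All counts are by limma. Lower H3K27me3 windows (826) became 2221 with the 5 libraries alone, 430 in a 2 kb window, 481 with IgG-touching peaks removed whole, 67 by any overlap and 149 over whole genes. Changed H2AK119ub windows (264) became 536 with covered length as covariate, 441 without the filter and 13 with 5 libraries. H3K4me1 windows (200) became 44 with 5 libraries and 75 in a 2 kb window. Domains covered less (821) became 1385 with gaps of up to 3 kb joined, 200 at 10 kb or longer and 246 where both control libraries agree. Domains with more peaks (194) became 114 and 94 under these last 2 and 121 without peaks under 500 bp. Domains with a shorter longest piece (740) became 182 and 254. Longer or stricter domains are fewer (244 and 560), and for the other changes the cause was not tested. Changed regions (0) became 2262 with 5 libraries and 188 with gaps of up to 1 kb joined.

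Leaving out 1 library gave 0 to 2260 lower windows, 52 to 384 for H2AK119ub, 21 to 217 for H3K4me1, 457 to 2127 narrower windows, 529 to 982 domains covered less, 172 to 503 with more peaks, 0 to 3705 regions and a difference in peak number of -3061 to 604.5. For the En1 domain it gave -0.244 to 0.0216 in coverage and -0.503 to 0.0384 in longest piece. With IgG-touching peaks removed whole, Sox1 turned to 0.1309, Cdkn1c to 0.0646, Unc5a to 0.2 and Hoxa9 to 0.1121, and the cause was not tested.

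CSF3R and double libraries share only replicate numbers 1 and 2, whose deviations correlated at 0.0563 and 0.0304. The deviations of the 2 double libraries mirror each other, so these correlations cannot decide whether libraries were paired. The main fit did not treat them as paired. A replicate block gave 46 lower windows, 21 changed H2AK119ub windows, 162 narrower windows, 357 domains covered less and 418 with a shorter longest piece.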
